A study of Mus musculus with 6 samples.

Results

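A set of 41 genes that were higher in mouse U14 cells overexpressing FOXP1 owed most of its summed signal in those cells to a single overexpression library, library 3. The genes were chosen from 1722 genes in the authors' table of changed genes by their values: a higher mean in overexpression than in wild type, and an expression value in overexpression library 3 that was above 0 and at least 4 times that in overexpression library 2. The authors list 1505 of the 15689 genes they tested as higher (9.59%), and the 41 are among these by the rule. Another 2 genes met the ratio and were left out by name (Lyz1 and the Slc family gene Slc5a7), as were Hox and Zfp genes by rule. U14 is a mouse cervical carcinoma line, and the labels give no strain, culture condition or number of clones. Poly(A)-selected RNA was sequenced in 3 libraries of wild-type cells and 3 libraries of cells of the same line with the genotype OEFOXP1, numbered 2, 3 and 4 in the table. Number 4 is in no sample title, so that library is known by its group only. Nothing in the labels tells whether the libraries were separate cultures.

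The members fall into recognisable families. Liver cells, and in part fat and lung cells, make enzymes that oxidise, conjugate or methylate small molecules, along with proteins destined for the plasma. Glandular epithelium of the breast, airway and reproductive tract is specified by transcription factors such as FOXA1 and ELF5 and makes mucins, ion channel regulators and membrane proteases. FOXP1 is a forkhead transcription factor, a relative of FOXA1 that acts mainly as a repressor. Ordered by role, the members comprised 11 metabolic enzymes and plasma proteins, 6 transcription regulators, 12 epithelial surface, secreted and barrier proteins, 6 signalling ligands and receptors, 2 granule proteins of innate immune cells and 4 other genes. The roles were assigned after the members were known.

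Sequencing depth was 16824351 to 20410060 fragments per library, and library 3 was the deepest. Expression is given as FPKM, fragments scaled to gene length and library size, which takes depth and gene length into account. The libraries were not those of a pure epithelial line: the epithelial keratin gene Krt18 read 322 to 394 FPKM in wild type, but the macrophage lysozyme gene Lyz2 read 947 to 1484 FPKM there and the antibody joining chain gene Jchain 146 to 218 FPKM. Other cervical or squamous epithelial markers, such as Krt5 and Krt14, were not analysed here. The same holds for Foxp1 itself, which leaves the group labels without a check on the overexpressed gene. Bulk RNA gives a single average, so more cells of a type and more RNA per cell cannot be told apart. Libraries of the same group differed beyond counting noise, with a chi-square of their counts over its degrees of freedom of at least 14.7 for every pair. This measure grows with the count, and the share of fragments in listed genes was at most 6.415% for wild type and at least 11.7% for overexpression, so it was not compared between the groups.

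Over all members the summed level was 24.3, 17.8 and 41.7 FPKM in wild-type libraries 1, 2 and 3. It was 66.0 FPKM in overexpression library 2, 589 in library 3 and 63.1 in library 4, so that library 3 held 82.0% of the sum over the 3 overexpression libraries, against 34.04% for all 1505 rising genes of the table. The metabolic gene Cyp2e1 alone gave 349.6 FPKM of the sum in library 3. Gene by gene, the share in library 3 ran from 45.5% for Tfap2b to 99.0% for Tdo2. Library 3 was the highest of the 6 libraries for 40 of the 41 genes, the exception being Tfap2b, and it was above every wild-type library for all 41, against 96.1% of all rising genes. The rule chose genes high in library 3, so these values describe the choice and test nothing. The authors' deposited table puts the members' log2 fold between 1.36 and 6.398, with a median q-value of 0.0295 against 0.00038 for all rising genes. Its q-values were above 0.01 for 35 members (85.4%), against 22.8% of the rising genes.

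**Figure D1:**
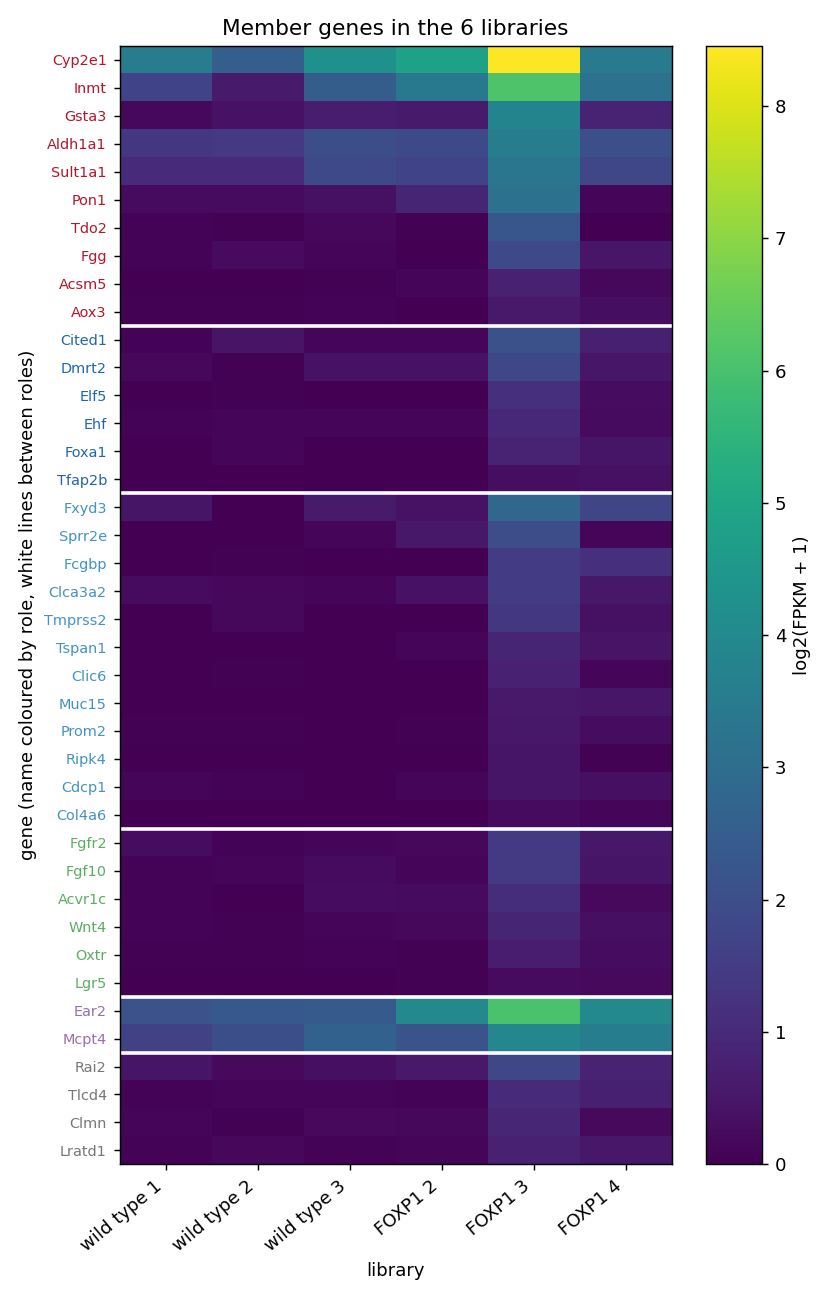
Expression of member genes as log2(FPKM + 1), by gene (rows, grouped and coloured by role) and library (columns: 3 wild type, 3 FOXP1 overexpression). The column of overexpression library 3 is the brightest in every row shown but that of Tfap2b, and Cyp2e1, Inmt and Ear2 are the brightest rows.

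The metabolic genes had the largest summed level of the roles in library 3, at 473 FPKM, mostly from Cyp2e1. By median the 2 granule genes were higher there, at 39.1 against 8.10 FPKM. Cyp2e1, a cytochrome P450 of the liver that oxidises ethanol and other small molecules, read 10.7, 4.89 and 18.0 FPKM in wild-type libraries 1, 2 and 3, and 27.8, 349.6 and 10.4 FPKM in overexpression libraries 2, 3 and 4. Library 3 stood 12.6-fold above library 2 (95% counting interval 11.7 to 13.5) and 33.5-fold above library 4, and library 4 lay inside the wild-type range. The mean was 11.2 ± 6.59 FPKM (SD, n = 3) in wild type and 129 ± 191 (SD, n = 3) in overexpression, so the overexpression SD exceeded its mean.

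Inmt, a methyltransferase of indoles that is abundant in lung, read 2.25, 0.524 and 4.62 FPKM in wild type and 9.64, 69.1 and 7.82 FPKM in overexpression libraries 2, 3 and 4. All 3 overexpression values lay above the wild-type ones, and library 3 was 7.16-fold above library 2. For Gsta3, a glutathione transferase of liver, wild type read 0.132, 0.329 and 0.580 FPKM and overexpression 0.511, 13.0 and 0.761 FPKM. Library 4 was just above the highest wild-type library and library 2 below it. Gsta3, like Clca3a2 and Ear2, has close paralogs, between which reads may have been split.

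Tdo2, which opens the ring of tryptophan in liver and in the decidua of the uterus, read 0.0656, 0.0328 and 0.136 FPKM in wild type and 0.0364, 3.78 and 0 FPKM in overexpression libraries 2, 3 and 4. Its 126 fragments in library 3 faced 1 fragment in library 2 and none in library 4, where up to 3 fragments (0.103 FPKM) would be compatible with a count of 0. The ratio of library 3 to library 2 was 104 with a counting interval of 18.3 to 4135. With library 4 set to a floor of 3 fragments, library 3 was at least 36.5-fold higher than library 4. Wild type held 2, 1 and 4 fragments of Tdo2, so outside library 3 no library had more than 4.

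Genes of plasma proteins behaved in the same way in part. Pon1, the paraoxonase carried on high-density lipoprotein, read 0.200, 0.200 and 0.311 FPKM in wild type and 0.832, 8.10 and 0.0789 FPKM in overexpression libraries 2, 3 and 4, so that library 4 was below every wild-type library. Fgg, the gamma chain of fibrinogen, read 0.0508, 0.178 and 0.0789 FPKM in wild type and 0, 2.67 and 0.427 FPKM in overexpression. Here library 4 exceeded every wild-type library and library 2 had no fragment.

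Among the remaining enzymes, Aldh1a1, which makes retinoic acid, read 1.58, 1.72 and 3.08 FPKM in wild type and 2.66, 10.96 and 3.18 FPKM in overexpression libraries 2, 3 and 4. Sult1a1, a phenol sulfotransferase, read 1.05, 1.004 and 2.62 FPKM in wild type and 2.24, 9.09 and 2.44 FPKM in overexpression. Outside library 3, both genes overlapped the wild-type libraries or lay just above them. Aox3, an aldehyde oxidase, read 0.0310, 0.0232 and 0.0482 FPKM in wild type and 0.0172, 0.496 and 0.236 FPKM in overexpression, and Acsm5, a medium-chain acyl-CoA synthetase, rested on 46 fragments in library 3 and 8 in library 4. Aox3 was the 1 gene of the 11 whose library 4 value was nearer to library 3 than to library 2 on the log2(FPKM + 1) scale. Wild-type libraries varied among themselves too: library 3 was the highest of the 3 for 9 of the 11 metabolic genes, compared with 846 of the 1505 rising genes.

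Transcription regulators were low, at 9.05 FPKM summed over the 6 in library 3 and 2.20 FPKM in library 4. Foxa1, a pioneer forkhead factor of luminal breast, prostate, airway and liver cells, read 0.0209, 0.0730 and 0.0108 FPKM in wild type and 0, 0.772 and 0.406 FPKM in overexpression libraries 2, 3 and 4. Libraries 3 and 4 were both above every wild-type library, and library 2, with no fragment, was at least 22.3-fold below library 3 (floor of 3 fragments per library). Elf5, an ETS factor of the alveolar lineage of the mammary gland, read 0.0229, 0.0458 and 0 FPKM in wild type and 0, 1.24 and 0.217 FPKM in overexpression, from 59 fragments in library 3 and 9 in library 4. Ehf, an ETS factor of epithelial cells, read 0.0690, 0.0919 and 0.0835 FPKM in wild type and 0.0893, 0.936 and 0.193 FPKM in overexpression, so that library 2 lay within the wild-type range. Ehf and Elf5 are adjacent protein-coding genes in RefSeq's GRCm38.p6 annotation, as are the members Tmprss2 and Ripk4.

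Tfap2b, an AP-2 factor of neural crest, kidney and mammary cells, was the member that library 3 did not lead. It read 0.00580, 0.00579 and 0.00601 FPKM in wild type and 0, 0.249 and 0.299 FPKM in overexpression libraries 2, 3 and 4, on 47 and 49 fragments in libraries 3 and 4. Cited1, a transcriptional coregulator of mammary and kidney epithelium, read 0.0706, 0.353 and 0.110 FPKM in wild type and 0.0783, 3.32 and 0.668 FPKM in overexpression. Dmrt2, a doublesex-related factor of somites, read 0.132, 0.0440 and 0.342 FPKM in wild type and 0.317, 2.54 and 0.417 FPKM in overexpression. In FPKM, library 4 was above every wild-type library for all 6 regulators, as it was for 98.5% of all rising genes. Library 2, low by the rule, was so for none of them. After the centring described with the counts for library 4, the first count over all 41 members was 4.

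**Figure D2:**
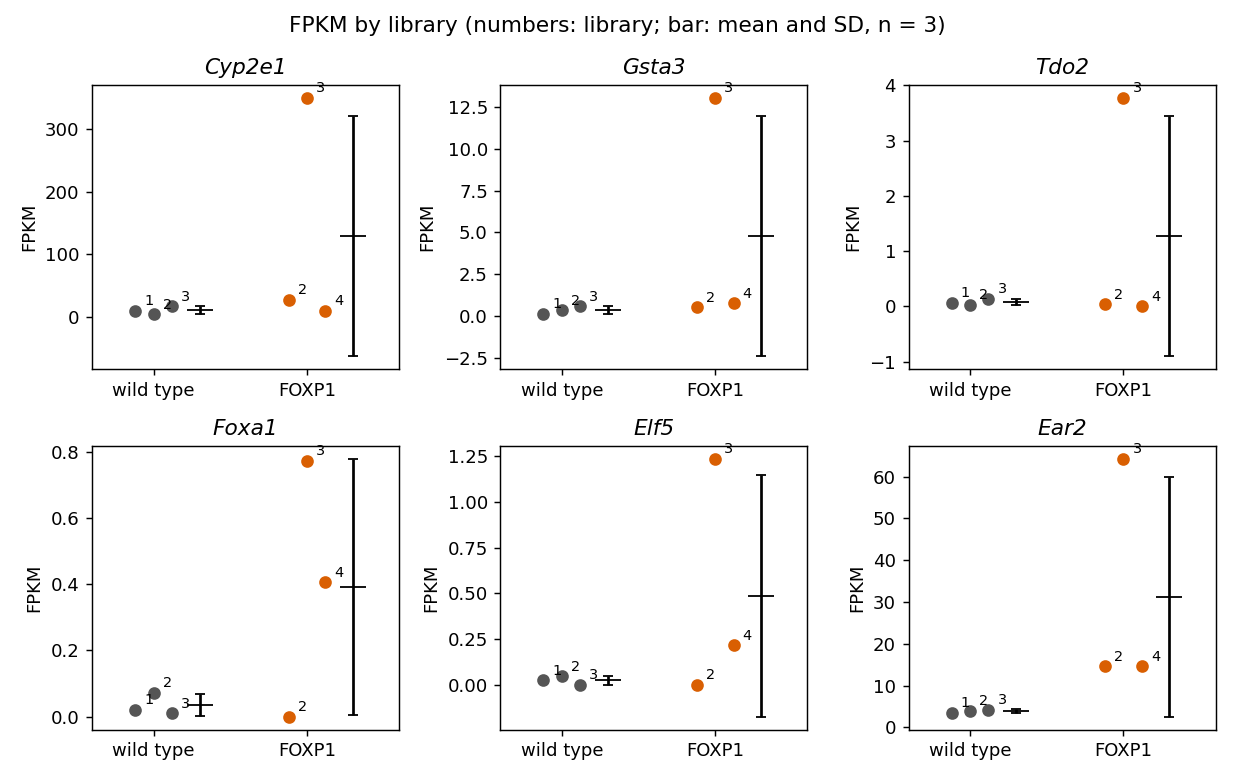
FPKM of 6 member genes in each library (points, numbered by library), with the mean and SD of the 3 wild-type and the 3 FOXP1 overexpression libraries. Library 3 is the highest point in every panel, and for Foxa1 library 4 stands midway at 0.406 FPKM whereas for Cyp2e1 it lies at 10.4 FPKM, within wild type.

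Because FOXP1 and FOXA1 bind forkhead motifs, promoter sequence of the members was searched on both strands for the core motif TGTTTAC, for its variant TGTTTGC and for a further variant, TATTTAC. Each motif differs from the others in at least 1 letter, so a match is counted under a single motif, and the search covered the 250 bases before each start site in RefSeq's GRCm38.p6 table. That table matched 34 of the 41 members, with 40 start sites. A motif was found before 6 of the 40 (15.0%), compared with 9.73% of all 32851 start sites. The 4 stretches printed here, 5′ to 3′ on the gene's strand with the motif in capitals, belong to Foxa1 and to 3 metabolic members that differ in library 4. They lie at chr12:57546219-57546279 (minus strand, Foxa1), chr3:81975877-81975937 (minus strand, Tdo2), chr6:5194066-5194126 (minus strand, Pon1) and chr7:119526170-119526230 (plus strand, Acsm5). The coordinates are RefSeq's, not the authors', and a match is a string of letters and not a measured binding site.
Foxa1: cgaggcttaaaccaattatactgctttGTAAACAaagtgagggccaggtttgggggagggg
Tdo2: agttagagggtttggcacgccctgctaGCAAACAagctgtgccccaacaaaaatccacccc
Pon1: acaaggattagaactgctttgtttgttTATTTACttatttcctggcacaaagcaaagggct
Acsm5: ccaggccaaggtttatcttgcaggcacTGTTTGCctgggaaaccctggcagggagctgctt
In Foxa1 and Tdo2 the motif is on the opposite strand, so the capitals are the reverse complement of the motif. The 4 genes did not share a level in library 4: Foxa1 and Acsm5 were above every wild-type library there, and Tdo2 and Pon1 were not.

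Epithelial surface and secreted proteins made the largest role. Fcgbp, a mucus protein of goblet cells, read 0.00676, 0.0270 and 0.0210 FPKM in wild type and 0, 1.77 and 1.26 FPKM in overexpression libraries 2, 3 and 4. It had 287 and 177 fragments in libraries 3 and 4 and none in library 2. With library 2 set to a floor of 3 fragments, it was at least 78.9-fold higher in library 3 and at least 55.9-fold higher in library 4. Muc15, a membrane mucin, read 0, 0.0163 and 0.0170 FPKM in wild type and 0, 0.478 and 0.413 FPKM in overexpression, so libraries 3 and 4 were near each other here too. Fxyd3, a regulator of the sodium pump in epithelia, read 0.409, 0 and 0.530 FPKM in wild type and 0.340, 5.89 and 2.37 FPKM in overexpression, and was the most abundant of the role.

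The protease gene Tmprss2, known from prostate and airway epithelium, read 0, 0.133 and 0.0172 FPKM in wild type and 0.0184, 1.61 and 0.296 FPKM in overexpression libraries 2, 3 and 4. Its chromosomal neighbour Ripk4, a kinase that epidermis needs to differentiate, had no fragment in wild type and 1, 31 and 3 fragments in overexpression libraries 2, 3 and 4. Clca3a2, a chloride channel accessory protein, read 0.194, 0.126 and 0.107 FPKM in wild type and 0.317, 1.74 and 0.445 FPKM in overexpression, with no overlap between the groups. Clic6, an intracellular chloride channel family member, read 0.0143, 0.0286 and 0 FPKM in wild type and 0.0159, 0.694 and 0.105 FPKM in overexpression.

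Tspan1, a tetraspanin of secretory epithelium, likewise had no fragment in wild type and 3, 35 and 13 fragments in overexpression libraries 2, 3 and 4. Prom2, a protein of membrane protrusions, had 2, 41 and 16 fragments in those libraries, Cdcp1, a surface receptor, 7, 42 and 25, and Col4a6, a basement membrane collagen, 0, 24 and 11. In each of these 4 genes library 3 was the highest and library 4 came next. Sprr2e, a cornified envelope protein of squamous epithelium, departed from this order, with 5, 39 and 1 fragments, and its near-identical Sprr2 paralogs make the count uncertain. In FPKM, library 4 was above every wild-type library for all 12 genes of the role, again beside 98.5% of all rising genes and 4 of the 41 members after centring, although for Sprr2e this rested on scaling alone, with 1 fragment in library 4 and 1 in wild-type library 3.

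Signalling genes included a ligand and its receptor. Fgf10, a mesenchymal growth factor that drives branching of lung and mammary epithelium, read 0.0586, 0.117 and 0.182 FPKM in wild type and 0.104, 1.68 and 0.407 FPKM in overexpression libraries 2, 3 and 4. Fgfr2, the gene of its receptor, read 0.211, 0.0701 and 0.0936 FPKM in wild type and 0.133, 1.69 and 0.453 FPKM in overexpression. Both had the order library 3, then library 4, then library 2, which lay within the wild-type range.

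Wnt4, a ligand that acts in mammary branching and in the reproductive tract, read 0.0561, 0.0280 and 0.0727 FPKM in wild type and 0.124, 0.833 and 0.265 FPKM in overexpression, and its groups did not overlap. Oxtr, the oxytocin receptor of myometrium and mammary myoepithelium, read 0.0389, 0.0292 and 0.0505 FPKM in wild type and 0.0324, 0.587 and 0.215 FPKM in overexpression. Lgr5, a receptor for R-spondins on epithelial stem cells, was the member with the fewest fragments in library 3, at 18, with 3 in library 2 and 14 in library 4. Acvr1c, an activin receptor of fat cells, read 0.0601, 0.0219 and 0.204 FPKM in wild type and 0.182, 1.17 and 0.161 FPKM in overexpression, so apart from library 3 its groups overlapped.

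The innate immune granule genes were detected in every library, from 2.17 FPKM upward. Ear2, a ribonuclease of eosinophils and alveolar macrophages, read 3.52, 4.04 and 4.27 FPKM in wild type and 14.7, 64.3 and 14.6 FPKM in overexpression libraries 2, 3 and 4. Overexpression libraries 2 and 4 were nearly equal and both exceeded wild type, with library 3 4.38-fold above library 2 (95% counting interval 3.72 to 5.17). Mouse Ear genes are near-identical copies, so this count is uncertain. Mcpt4, a chymase of connective tissue mast cells, read 2.17, 3.08 and 5.22 FPKM in wild type and 3.48, 13.96 and 10.8 FPKM in overexpression, and here libraries 3 and 4 were both above the wild-type libraries while library 2 was among them.

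The 4 other genes were low. Rai2, a retinoic acid-induced coregulator, read 0.406, 0.150 and 0.266 FPKM in wild type and 0.498, 2.52 and 0.809 FPKM in overexpression libraries 2, 3 and 4, with no overlap between the groups. Tlcd4, a TLC domain membrane protein, read 0.0515, 0.0735 and 0.0763 FPKM in wild type and 0.0489, 1.04 and 0.665 FPKM in overexpression. Lratd1 had 5, 50 and 28 fragments in overexpression libraries 2, 3 and 4, and Clmn, the actin-binding protein calmin, 28, 215 and 33. In Clmn library 4 was within the wild-type range, and in the other 3 genes it was above it.

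**Figure D3:**
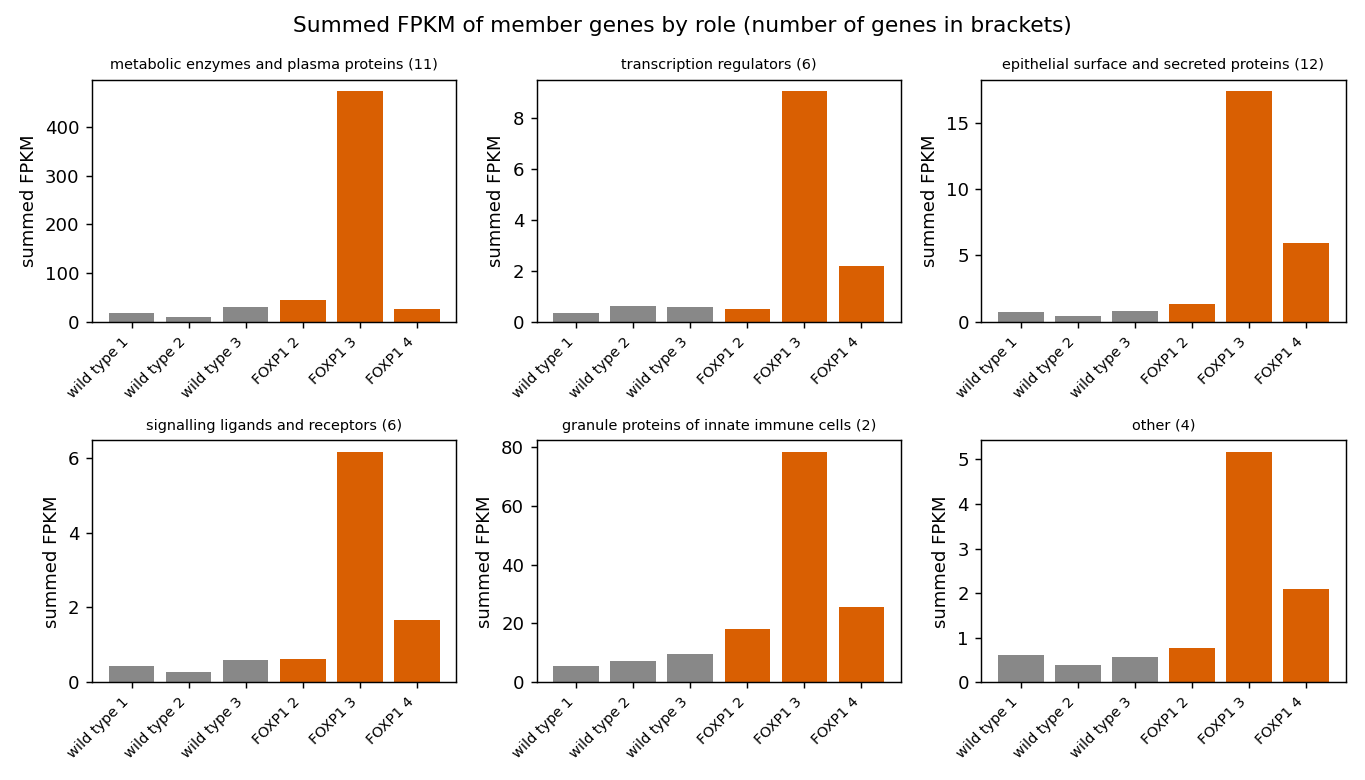
Summed FPKM of the member genes of each role (panels, each with its own axis from 0) in the 3 wild-type (grey) and 3 FOXP1 overexpression (orange) libraries. Library 3 has the tallest bar in all 6 panels, and library 4 is below library 2 only for the metabolic genes, at 25.8 against 44.6 FPKM.

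In FPKM, without centring, library 4 was above every wild-type library for 34 of the 41 members, where 98.5% of all rising genes were. The 7 exceptions, of which 5 belong to the 11 metabolic genes, included Acvr1c, Clmn, Cyp2e1, Pon1, Sult1a1 and Tdo2. By role, with no test between roles, the count was 6 of 11 metabolic genes, 6 of 6 transcription regulators, 12 of 12 epithelial proteins, 5 of 6 signalling genes, 2 of 2 granule genes and 3 of 4 others. Library 2, which the rule required to be low, was above every wild-type library for 13 members, where 97.5% of all rising genes were, and the 2 groups had no overlap for 10 members, where 92.3% of rising genes had none. Centring on the median of the listed genes, most of which are higher by the authors' selection, removes a shift of 0.81 on the log2 scale between the groups. Library 4 was then above every wild-type library for 4 of the 41 members and 670 of the 1505 rising genes (44.5%).

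On the log2(FPKM + 1) scale, library 4 was nearer to library 3 than to library 2 for 12 members, or 29.3%, against 42.0% of all rising genes. These were Fcgbp, Muc15, Fxyd3, Cdcp1 and Col4a6 among the epithelial proteins, Foxa1 and Tfap2b among the regulators, and Aox3, Lgr5, Mcpt4, Lratd1 and Tlcd4. With values taken as counts divided by the authors' size factors the number was 19, and after centring 6. The share of all rising genes was not computed on those scales, so 42.0% is not their comparison. The median log2 ratio of library 4 to the wild-type mean was 0.30 over the members and 0.96 over all rising genes, and that of library 3 was 1.26 and 0.75. After centring the members' median in library 4 was -0.58, and that of all rising genes 0.09. With a pseudocount of 0.1, which weighs low genes more, the library 4 medians were 1.26 and 1.45.

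**Figure D4:**
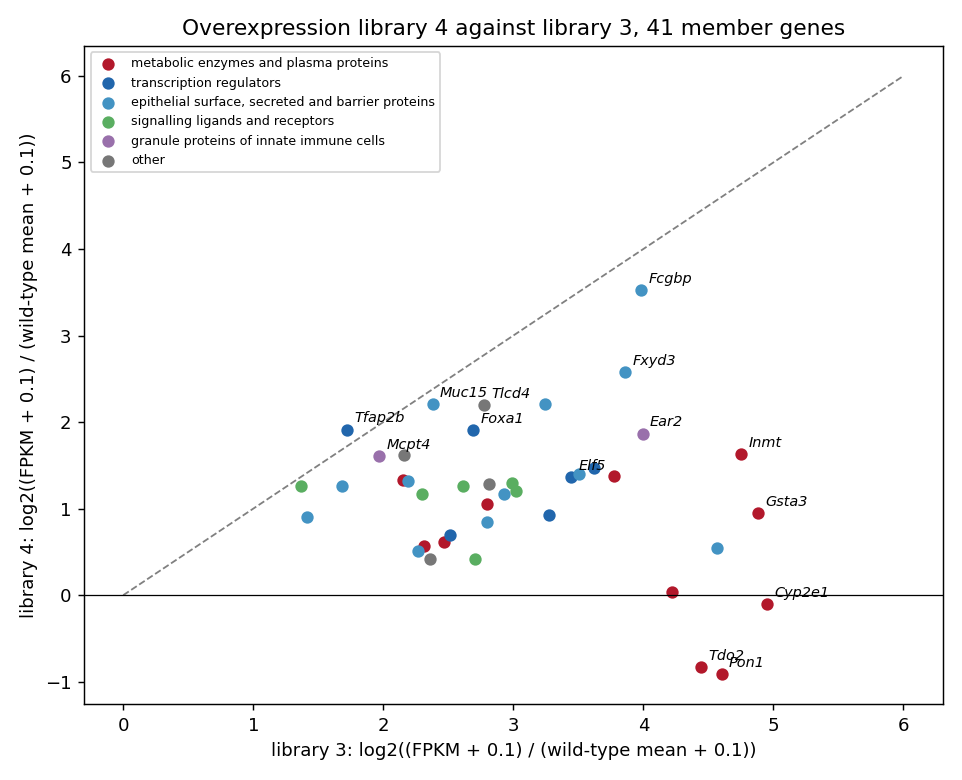
Log2 ratio to the wild-type mean (FPKM + 0.1) in overexpression library 4 (vertical) against library 3 (horizontal), 1 point per member gene, coloured by role, with the dashed line at equality. Cyp2e1, Pon1 and Tdo2 lie at or below 0 in library 4, while Tfap2b lies just above the dashed line, which marks equal values.

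A model of all 6 libraries treats such genes according to the scale. Since the members were chosen by this contrast, the counts are a description. Limma on log2(FPKM + 1), adjusted by Benjamini-Hochberg across all 1722 listed genes, called 628 genes higher and 71 lower, or 36.5% higher, and 4 of the 41 members higher (Ear2, Inmt, Fxyd3 and Mcpt4). After centring it called 26 genes higher and 213 lower, or 1.51% higher, and 0 members. At an unadjusted p under 0.05 in either direction there were 13 members and 704 of the 1722 listed genes. Leaving out overexpression library 3 gave 2 members, with 39.5% of the listed genes called higher. The count was also 2 without wild-type library 1 (26.5% of listed genes higher) or wild-type library 2 (35.4%), and it was 10 without overexpression library 2 (34.3%). With a pseudocount of 0.1 it was 21 members (79.1% of listed genes higher), and with voom on rebuilt fragment counts 12 (81.6%). Without library 3 the log2 difference of Ear2 was 1.67 and that of Inmt 1.68.

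Few markers of the tissues these genes are known from were among the listed genes. Of the 1722 listed genes 1505 are higher, so the direction of a listed marker alone says little. Of 17 liver markers, 5 were listed, all higher: the members Cyp2e1, Gsta3, Tdo2 and Fgg, and the transferrin gene Trf, which read 49.9, 49.3 and 77.2 FPKM in wild type and 117, 239.8 and 83.3 FPKM in overexpression libraries 2, 3 and 4. The summed level of the listed liver markers was 54.7 to 96.05 FPKM in wild type and 94.9 to 609 FPKM in overexpression. As 4 of these markers are members, the high sum in library 3 follows from the rule, with 349.6 FPKM from Cyp2e1. The other 12 liver markers, albumin and the apolipoproteins among them, were not analysed here. Of 11 adipocyte markers only the lipase gene Lpl was listed, at 18.7, 21.5 and 58.2 FPKM in wild type and 77.9, 154 and 81.8 FPKM in overexpression. Trf and Lpl were not members, and library 3 was the highest in both, with all overexpression libraries above wild type.

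Of 12 markers of lung stroma and alveolar macrophages, 3 were listed (Inmt, Ear2 and Hhip), and of 15 lung epithelial markers 2 (Napsa and Hopx), neither of them a member. The 20 luminal and glandular epithelial markers had 6 listed: the members Foxa1 and Elf5, the higher genes Epcam, Prlr and Kit, and Krt18, which was lower. Epcam, an adhesion protein of epithelia, read 1.33, 1.196 and 1.24 FPKM in wild type and 8.97, 3.30 and 5.74 FPKM in overexpression libraries 2, 3 and 4. It was highest in library 2, where Foxa1 and Elf5 had no fragment. Prlr, the prolactin receptor, read 0.0233, 0.0582 and 0.153 FPKM in wild type and 0.473, 0.936 and 0.983 FPKM in overexpression, with libraries 3 and 4 alike. Of 16 basal and squamous markers only Sprr1a was listed, as lower. None of the 10 kidney, 15 salivary, 15 skeletal muscle or 10 smooth muscle markers was listed. These lists are short: the muscle myosin genes Myh3 and Myh8, outside them, were listed. They had 84, 8 and 12 fragments and 139, 15 and 25 fragments in overexpression libraries 2, 3 and 4. Lgr5 was the only one listed of 15 intestinal and stomach markers, and Msx1, higher, and Wfdc2, lower, the only ones of 15 markers of the female tract.

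Among mast cell and granulocyte markers, 7 of 20 were listed, all higher. Their summed level was 9.88 to 17.8 FPKM in wild type and 42.9 to 94.5 FPKM in overexpression. The members Ear2 and Mcpt4 are in this sum, so its value in library 3 follows in part from the rule. The mast cell genes Cpa3 and Tpsb2 shared the order of Mcpt4 in part: Cpa3 read 1.65, 4.86 and 8.07 FPKM and Tpsb2 3.11, 7.73 and 11.5 FPKM in overexpression libraries 2, 3 and 4, where library 2 was again the lowest but library 4 the highest. The eosinophil granule gene Prg2 did not share the order of Ear2, with 18.9, 2.35 and 5.94 FPKM. Markers of B and plasma cells, of which 13 of 16 were listed as higher and none was a member, were highest in library 2 for 11 of the 13, with a summed level of 299 to 399 FPKM in wild type and 4559, 455 and 1733 FPKM in overexpression libraries 2, 3 and 4. Of 7 listed macrophage and dendritic cell markers, library 3 was the highest of the overexpression libraries for 6, against 336 of all 1505 rising genes. The exception, Cd68, was lowest there, at 319, 238 and 375 FPKM in overexpression libraries 2, 3 and 4. Whether different shares of such cells account for the members' levels was not tested.

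**Figure D5:**
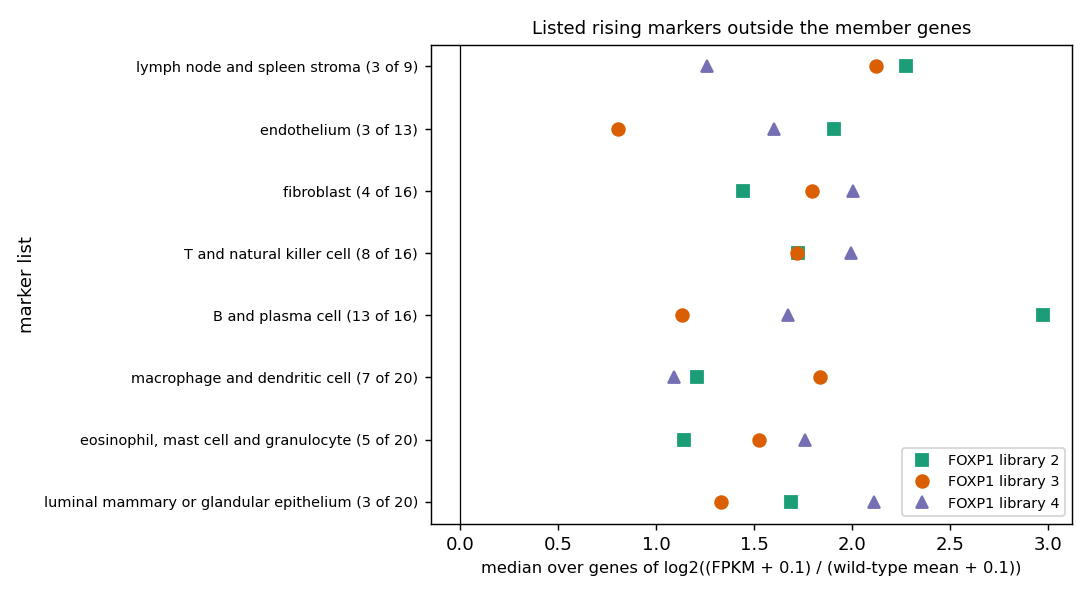
Median log2 ratio to the wild-type mean (FPKM + 0.1) of listed rising marker genes outside the members, in each of the 3 FOXP1 overexpression libraries, with the number of genes used and the list size in brackets. B and plasma cell markers are highest in library 2 (2.97), macrophage and dendritic cell markers in library 3 (1.84) and fibroblast markers in library 4 (2.01).

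The gene annotation in the table gave a further view of what the members share, through terms picked after they were seen. DNA-binding transcription factor activity was assigned to 5 members (12.2%) and to 4.19% of all rising genes, and oxidoreductase activity to 4 members (9.76%) and 2.72%. Broader terms went both ways. DNA binding, with the same 5 members, was at 12.2% against 7.97%, nucleus at 22.0% against 22.4% and cytoplasm at 46.3% against 33.4%. Membrane was at 36.6% against 47.7% and protein binding at 19.5% against 30.8%. Epithelial cell differentiation was assigned to 3 members, Ehf, Fgf10 and Fgfr2, out of 6 rising genes with the term. Branching of epithelial tubes in lung development was assigned to Fgf10, Fgfr2 and Foxa1, out of 4 rising genes with the term.

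Differences of this size between overexpression libraries ran in all directions. Of the 1505 rising genes, 43 were at least 4 times higher in library 3 than in library 2 before genes were left out by name, and 70 were so in library 2 over library 3. Library 4 exceeded library 3 by that ratio for 53 genes and library 3 exceeded library 4 for 31. The mirror set, with library 2 at least 4 times library 3 and the same names left out, held 68 genes with summed levels of 5174, 498 and 2100 FPKM in overexpression libraries 2, 3 and 4, and library 4 was above every wild-type library for 68 of them. Just inside the threshold of the members lay Mcpt4, with a ratio of 4.01, and Sult1a1, with 4.06. Just outside lay the homeobox gene Irx1, with 3.91, and the collagen gene Col6a5, with 3.80. Low counts set the precision of many members: 26 had under 10 fragments in library 2, and 7 of these had none. Of all 1505 rising genes, 44 had under 10 fragments there and 7 had none. The rule required library 2 to be low, so the members' counts there follow in part from the choice.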

How the data were processed

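Expression values of 6 libraries, 3 wild-type and 3 FOXP1 overexpression, were taken from the authors' deposited table, whose rows all have q-values below 0.05 and at least 2-fold changes. Per the submitters' processing notes, Trimmomatic, HISAT2 and DESeq were used, and the build named there is the human hg19, although symbols and Entrez identifiers are mouse ones. The counting tool was not stated. The deposited values are FPKM, as settled from the numbers: combined with the authors' mean normalised signal of each group, they gave fragment counts that were whole for 100.0% of 10332 values (tolerance 0.01). Fold ratio, log2 fold, p-value and q-value are the authors', per the file headers. The q to p ratio gave 15689 genes tested, of which 9.59% are listed as higher.

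Members, roles and lists were chosen with earlier results of these data known. Full values were set for 6 genes of the request, the 10 other members highest in library 3, the 5 with the largest ratio of library 3 to library 2, and members in a marker list. Further members were given in full after their values had been seen, and 1 member, kept in counts and sums, is not reported here by name. A gene was called by limma 3.58.1 (R 4.3.3), with a trend, with an adjusted p below 0.05 and a log2 difference no smaller than 1. Low genes are understated on the log2(FPKM + 1) scale. The spread behind the p-values is that of these libraries and may be technical. Tested on simulated data, the fit of overexpression against wild type recovered 199 of 200 genes, among 1722, changed by 2 on the log2 scale. It made 2 false calls. The change was put into all 3 overexpression libraries alike, so the result does not extend to genes carried by 1 library. Counting intervals are exact at 95% and cover counting error only. Where a library had no fragment, its count was set to a floor of 3 fragments. The ratio printed as at least that value is not a 95% limit. The exact 95% lower limits were below it. For Fcgbp they were 63.7 for library 3 and 45.0 for library 4 over library 2. They were 29.3 for library 3 over library 4 in Tdo2 and 17.7 for library 3 over library 2 in Foxa1. The floor for the level of Tdo2 was also 3 fragments. Alternatives were other pseudocounts, filters, scalings, a replicate block, voom and left-out libraries.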

Additional observations from a re-analysis of the deposited data

How the results depend on the processing

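Of 52 values recomputed under an alternative, 27 stayed within the margin set for them. A filter of 1 FPKM on the higher mean left 17 members, of which library 4 was above every wild-type library in 12 and nearer to library 3 in 3. No share of all rising genes was computed for these counts, or for the nearness counts below. The filter raised the median log2 ratio of library 3 to library 2 from 1.16 to 1.90. A pseudocount of 0.1 moved that ratio to 2.45 and the median of library 4 over wild type to 1.26. It moved the listed genes called by limma from 699 to 1511 and the members called from 4 to 21. Totals of listed genes here count both directions, and members called are higher ones. The share of listed genes called higher went from 36.5% to 79.1%. On counts divided by the authors' size factors the 2 medians were 3.54 and 1.73, and library 4 was nearer to library 3 for 19 members. Centring on library medians reversed the median of library 4 to -0.58, and left library 4 above every wild-type library for 4 members and nearer to library 3 for 6. It gave 239 listed genes (1.51% of listed genes higher) and 0 members called. Voom called 1620 listed genes (81.6% of listed genes higher) and 12 members. With adjustment over every gene tested, an alternative added with the data in view, it called 2 members, with 45.1% of the listed genes higher. Limma without the trend called 2 members, with 35.5% of the listed genes higher. The causes were not tested beyond the change of scale or filter itself.

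Leaving out 1 library at a time gave 2 to 10 members and 514 to 786 listed genes called. For library 4, leaving out a wild-type library gave 34 to 37 members above wild type and a median of 0.28 to 0.35. With the replicate number as a block, in which numbers 2 and 3 are shared, limma called 412 listed genes (20.7% of listed genes higher) and 4 members. Deviations from the group mean correlated at 0.02 for number 2 and 0.08 for number 3 over genes. Pairs of unlike number ran from -0.10 to 0.07. Whether a shared number means a shared batch was not tested.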

Other observations

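Lyz1, the Paneth cell lysozyme gene that macrophages of some tissues also express, met the ratio but was left out by name. It read 8.47, 15.2 and 11.6 FPKM in wild type and 77.8, 383.8 and 41.2 FPKM in overexpression libraries 2, 3 and 4, so all 3 overexpression libraries were above wild type and library 3 was the highest. Slc5a7, the choline transporter of cholinergic neurons, was also left out by name and read 0.0217, 0.224 and 0.0926 FPKM in overexpression libraries 2, 3 and 4, with the highest wild-type library at 0.00977 FPKM.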
